A study of Drosophila melanogaster with 6 samples.

Results

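The 31 genes described here encode the contractile apparatus of fly muscle, from myosin and actin to the giant elastic proteins. They were chosen by name as sarcomere genes and matched by symbol to FlyBase identifiers, and all 31 of them were found among the 17737 genes counted. RNA was sequenced from whole adult w1118 males that had spent 20 days at 25°C on glucose-supplemented holidic food (GSF), which is holidic food with 50 g/L of added glucose, or on unmodified holidic food (HF), a chemically defined diet. Both groups were w1118 flies raised on standard cornmeal before eclosion. There were 3 libraries per diet, each from 5 whole flies, so that muscle RNA was measured together with that of every other tissue. The labels do not say whether the libraries of a diet came from separate vials, and p-values measure the spread between these libraries only.

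In the sarcomere, thick filaments of myosin pull on thin filaments of actin, and tropomyosin and the troponin complex make this pull depend on calcium. Thin filaments are anchored at the Z-disc, thick filaments at the M-line, and giant titin-like proteins link both. Flies build muscles of different kinds. The fibrillar indirect flight muscles are activated by stretch and carry their own actin, troponin C and thick filament proteins. For the tubular muscles of the legs, abdomen and jump muscle, and for gut muscle, other genes of the same families are used.

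Library totals over all genes ranged between 51826530 and 66493536 counts, and ribosomal RNA genes took between 20.6% and 24.6% of them in GSF libraries and between 17.9% and 18.6% in HF libraries. Values are given as CPM, counts scaled to a library total of 1e+06 after TMM adjustment, and 3 counts correspond to between 0.0451 and 0.0579 CPM. Markers of testis, photoreceptors and neurons were present in every library. Yolk protein genes were listed as female markers. In these males Yp1 and Yp2 had means of 0.321 and 0.239 CPM on GSF and of 0.399 and 0.31 CPM on HF. Yp3 was higher, at 7.03 CPM on GSF and 9.19 CPM on HF, with a log2 fold change of -0.39, and was not called. The summed level of 6 gut markers lay between 2083 and 2805 CPM in GSF libraries and between 3334 and 4169 CPM in HF libraries, that of 5 fat body markers between 3005 and 3684 CPM on GSF and between 4029 and 4492 CPM on HF, and that of 5 neuronal markers between 331 and 404 CPM on GSF and between 302 and 328 CPM on HF. Within the gut and fat body lists genes lay on both sides of 0. Of the 6 gut markers 3 were called lower (Mal-A1, Jon65Aiv and LManII), while mex1 was at 0.33 on the log2 scale. Of the 4 tested fat body markers 2 were called lower (FASN1 and Lsd-1), while apolpp was at 0.30. Lsp2 had the largest fold change of these markers, at -3.07, and was not called. Its levels were 47.4 ± 54.1 CPM on GSF and 398 ± 190 CPM on HF (SD, n = 3 each). Of the 5 neuronal markers all were above 0 and 0 were called. The part of these markers in the values of the muscle genes was not tested.

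The sarcomere genes together took nearly the same share of all counts on both diets. These counts include ribosomal RNA genes, whose share was higher in every GSF library than in every HF library. They held 0.834%, 0.8781% and 0.84% of all counts in GSF libraries, against 0.813%, 0.8955% and 0.8682% in HF libraries, and their summed level was 8153, 8745 and 8569 CPM on GSF against 8198, 8907 and 8766 CPM on HF. The diets overlapped in both measures. Of the 30 members above the filter of 1 CPM in at least 3 libraries, 1 was differentially expressed with edgeR's quasi-likelihood test, for which the threshold was p under 0.01 together with FDR, the p adjusted after Benjamini and Hochberg, under 0.05. That gene, fln, was lower on GSF. Over all 13373 tested genes, 5.14% were called in either direction and 3.14% were called lower, so that 1 of 30 members is close to the background. At an unadjusted p under 0.05, 2 members were higher (TpnC41C and tmod) and 3 were lower (fln, TpnC47D and Mlp60A), where 9.77% and 9.90% of all tested genes were. The median log2 fold change of the 30 members was -0.038, with 21 below and 9 above 0, and that of all tested genes was 0.008. In bulk RNA of whole flies, fewer muscle cells and less RNA per cell cannot be told apart.

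For most members the data set a narrow limit on any difference between the diets. The 95% interval of the fold change stayed within 1.2-fold in either direction for 15 of the 29 members that were not called, and within 1.25-fold for 22. Act88F had the widest interval, from -0.77 to 1.82 on the log2 scale.

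**Figure D1:**
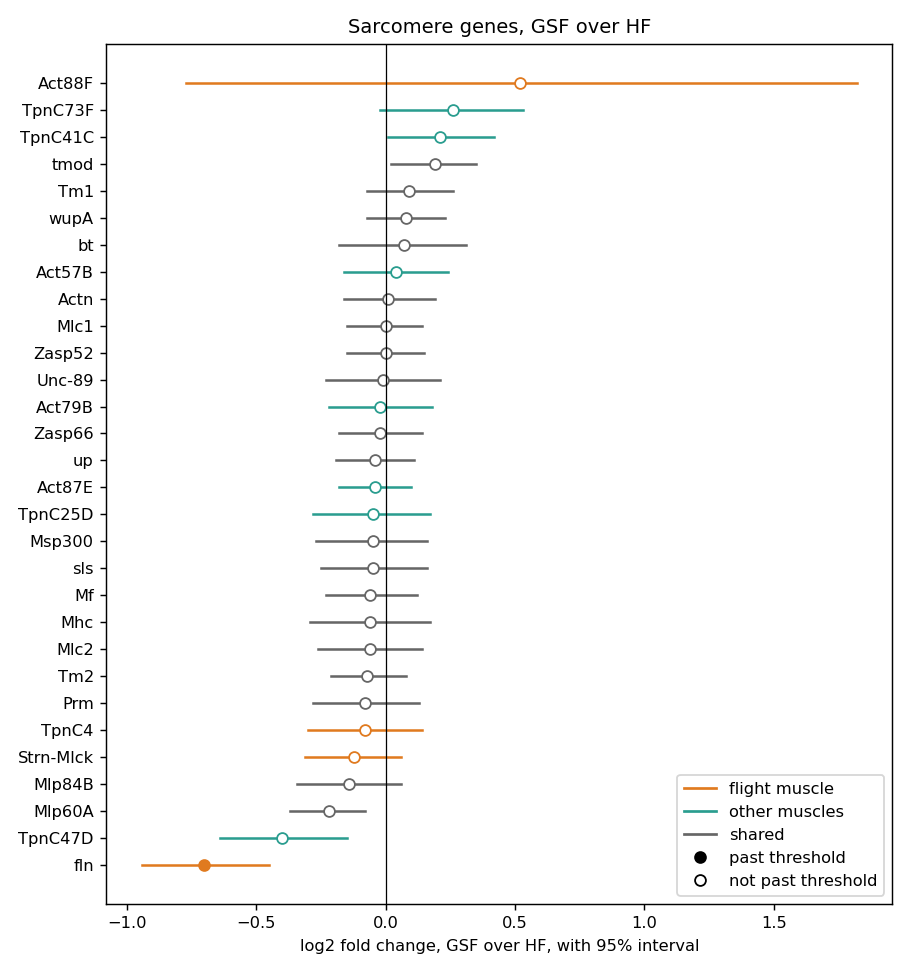
Log2 fold change of each tested sarcomere gene, GSF over HF (x axis), with its 95% interval from edgeR's quasi-likelihood fit (line), coloured by the muscle in which the gene is mainly used; filled points passed the threshold. Only fln at -0.70 is filled, most other points lie close to 0, and Act88F has the widest interval.

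To compare levels between genes, CPM were divided by the length of all annotated exons of a gene in kb. Act57B, an actin gene of abdominal and larval body wall muscle, was the highest member, at 435 ± 25.9 CPM per kb on GSF and 424 ± 35.0 CPM per kb on HF (SD, n = 3 each). The regulatory myosin light chain gene Mlc2 followed at 227 ± 7.74 CPM per kb on GSF and 236 ± 23.2 on HF, the essential light chain gene Mlc1 at 158 ± 5.51 on GSF and 159 ± 1.66 on HF, and the troponin T gene up at 139 ± 3.36 on GSF and 143 ± 5.15 on HF. Mhc, the muscle myosin heavy chain gene, had 117 ± 9.61 CPM per kb on GSF and 122 ± 12.5 on HF, and wupA, the troponin I gene, had 124 ± 1.75 on GSF and 117 ± 4.52 on HF. The levels of Mhc and wupA overlapped on both diets.

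Of the genes used mainly in flight muscle, Act88F, fln and Zasp67 were low on this scale. Act88F, the flight muscle actin, had 25.5 ± 19.04 CPM per kb on GSF and 17.7 ± 7.87 CPM per kb on HF, far below Act57B and below the jump muscle actin gene Act79B at 75.2 ± 6.07 CPM per kb on GSF and 76.3 ± 5.99 on HF. fln, which encodes the thick filament protein flightin, had 5.55 ± 0.356 CPM per kb on GSF and 8.99 ± 0.974 on HF. Zasp67, a PDZ-domain gene of the flight muscle Z-disc, was the lowest member at 0.292 ± 0.0314 CPM per kb on GSF and 0.288 ± 0.0577 on HF. These genes of flight muscle were thus present, but below Mhc, Mlc1, Mlc2, up and wupA, which are shared with other muscles. Low means were not particular to flight muscle genes. TpnC47D and TpnC41C, of other muscles, had lower means than Act88F on both diets. TpnC4, the troponin C of stretch activation, had the highest means of the flight muscle genes, with 38.9 ± 4.32 CPM per kb on GSF and 41.0 ± 2.17 on HF. Act88F was above it in GSF library 1 at 46.07 CPM per kb, against 37.34 for TpnC4. The genes with many alternative exons, such as Mhc, sls, Msp300 and Strn-Mlck, are placed too low by a length that counts every exon. Mhc has 9058 bp of exon and 21 coding transcripts, so its place against Mlc1, Mlc2, up and wupA is uncertain.

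**Figure D2:**
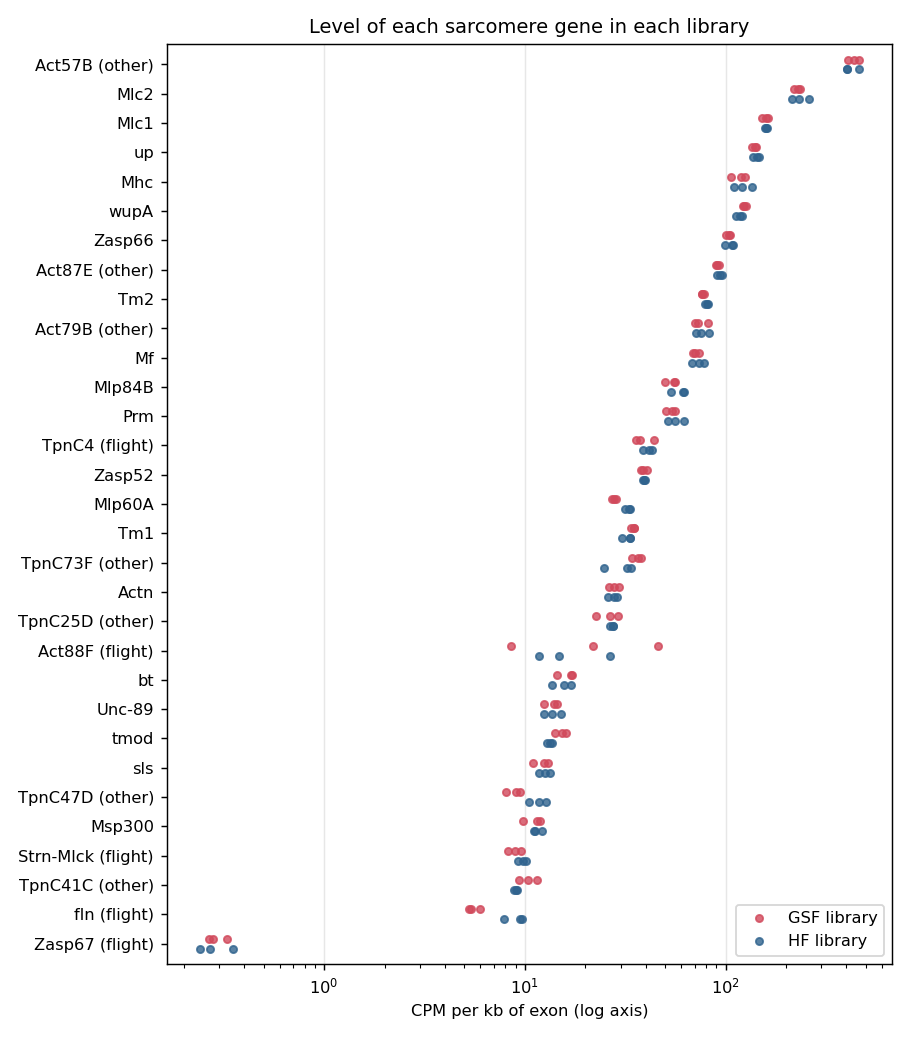
Level of the 31 sarcomere genes in each library, in CPM per kb of exon on a log axis, with GSF libraries above HF libraries in each row and genes ordered by their HF mean; genes used mainly in flight muscle or mainly in other muscles are marked. Act57B is highest and Zasp67 lowest, the libraries of the diets lie close together for most genes, and Act88F spreads widely within each diet.

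Among the flight muscle genes, fln (FBgn0005633, chromosome 3L of BDGP6.54, 19989551 to 19991220, minus strand) fell on GSF. Its levels were 7.74, 7.02 and 6.88 CPM in GSF libraries 1, 2 and 3, against 10.2, 12.3 and 12.6 CPM in HF libraries 1, 2 and 3. Every GSF library lay below every HF library. The means were 7.21 ± 0.462 CPM on GSF and 11.7 ± 1.27 CPM on HF (SD, n = 3 each), a log2 fold change of -0.70 (standard error 0.105, FDR = 0.0135 from edgeR's quasi-likelihood test), so that the level fell by 38.3%, with a 95% interval from -0.94 to -0.45. The FDR was 0.0562, 0.0552 and 0.0542 without GSF replicate 1, 2 or 3, just above the threshold, so that fln was not called in these fits, while the log2 fold change stayed between -0.78 and -0.64 with any library left out.

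The counts of fln cannot be assigned to a strand. A non-coding gene on the plus strand, asRNA:CR45161, overlaps 801 of the 1300 bp of fln exon, or 61.6%, and no source states whether the counting used strand. Its counts were 486, 460 and 403 in the GSF libraries, where fln had 490, 469 and 407, and 526, 708 and 750 in the HF libraries, where fln had 526, 710 and 758. Its counts were therefore between 98.1% and 100% of those of fln, and its log2 fold change of -0.71 (standard error 0.105, FDR = 0.0132) is the same measurement. Reads of fln and of its antisense partner cannot be told apart in these counts.

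The flight muscle actin gene Act88F (FBgn0000047, chromosome 3R, 15439969 to 15442177) varied more within each diet than any other member. It had 73.5, 34.9 and 13.6 CPM in GSF libraries 1, 2 and 3, against 23.7, 42.5 and 18.7 CPM in HF libraries 1, 2 and 3. The highest and the lowest library were both on GSF, 5.42-fold apart, and the HF libraries spread 2.27-fold. For the other 30 members the highest library of a diet was at most 1.47-fold above the lowest. The log2 fold change of Act88F was 0.52 (standard error 0.557, FDR = 0.712), and it was -0.22 without GSF replicate 1 and 0.96 without HF replicate 2. The actin genes are close copies of each other, so that some of their reads may have been counted on another actin gene.

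TpnC4 (FBgn0033027, chromosome 2R) had 31.7, 30.2 and 37.2 CPM in GSF libraries and 32.8, 36.4 and 35.3 CPM in HF libraries, with a log2 fold change of -0.08 (standard error 0.094, FDR = 0.763). The diets overlapped. Strn-Mlck, a giant gene of the titin and myosin light chain kinase family whose long form sits on flight muscle thick filaments, had 270, 315 and 294 CPM in GSF libraries and 304, 322 and 331 CPM in HF libraries, with a log2 fold change of -0.12 (standard error 0.079, FDR = 0.478). It passed when a trend on gene length was removed and the replicate number was held in the fit (FDR = 0.0418). In that fit 910 of 13277 tested genes were called lower. Zasp67 had between 0.869 and 1.06 CPM in GSF libraries and between 0.778 and 1.14 CPM in HF libraries, was below the filter and was not tested. Without the filter its log2 fold change was 0.02 (standard error 0.216, FDR = 0.985).

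**Figure D3:**
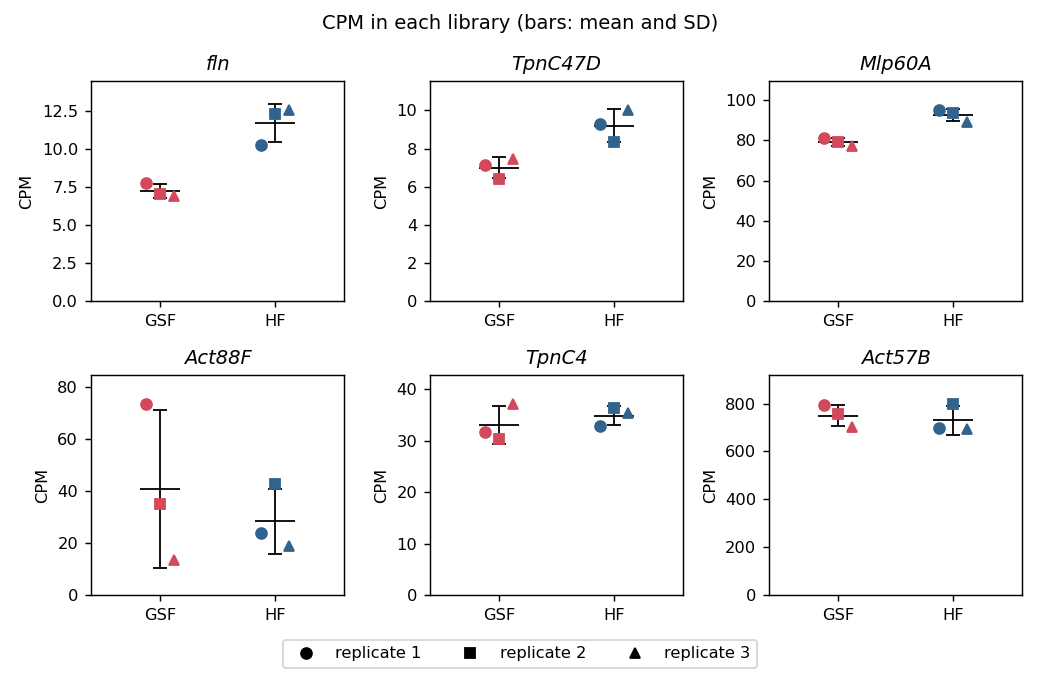
CPM of 6 sarcomere genes in each GSF and HF library (points, with the symbol giving the replicate number) with the mean and SD of each diet (bars), each panel starting at 0. The GSF libraries lie below the HF libraries for fln, TpnC47D and Mlp60A, and overlap them for Act88F, TpnC4 and Act57B.

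The genes of other muscles comprised 3 actins and 4 troponin C genes. The actins did not differ detectably. Act57B differed by 0.04 on the log2 scale (standard error 0.085), Act79B by -0.02 (standard error 0.088) and Act87E, a further actin of larval and adult body muscles, by -0.04 (standard error 0.061), with FDR of 0.887, 0.951 and 0.824. Their 95% intervals all lay within -0.22 and 0.24, so that a change of these actins by more than 17.9% upward was outside the interval of each.

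The troponin C genes, which encode the calcium sensor of the thin filament, lay on both sides of 0. TpnC47D (FBgn0010423, chromosome 2R, 11273845 to 11275286), known from larval and adult body wall muscle, had 7.12, 6.4 and 7.47 CPM in GSF libraries, against 9.26, 8.32 and 10.03 CPM in HF libraries. All GSF libraries lay below all HF libraries. The log2 fold change was -0.40 (standard error 0.105), or -24.0%, with an edgeR FDR of 0.0776, which missed the threshold. In a fit that also holds the replicate number, so that libraries of the same number are compared (the replicate block), it passed at FDR = 0.018. No label pairs libraries by number, and this pairing was taken from the same counts.

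TpnC73F, known from the same muscles as TpnC47D, had 38.8, 40.3 and 36.3 CPM in GSF libraries and 34.3, 35.9 and 26.4 CPM in HF libraries. The GSF libraries lay above the HF libraries, with a log2 fold change of 0.26 (standard error 0.119, FDR = 0.29, and 0.0667 with the replicate block). Without HF replicate 3, the lowest library, it was 0.13 (FDR = 0.428). TpnC41C, the troponin C of the jump muscle, had 19.6, 21.6 and 17.7 CPM in GSF libraries and 16.6, 16.95 and 17.2 CPM in HF libraries, a log2 fold change of 0.21 (standard error 0.088, FDR = 0.241). Its libraries did not overlap either, although the lowest GSF library was close to the highest HF library. TpnC25D had between 28.3 and 36.5 CPM in GSF libraries and between 33.2 and 34.3 CPM in HF libraries (log2 fold change -0.05, standard error 0.098). Per kb of exon, TpnC4 and TpnC73F had the highest means of the troponin C genes on both diets, but in HF library 3 TpnC73F was at 24.92 CPM per kb, below TpnC25D at 27.36. TpnC47D and TpnC41C were the lowest, at 8.84 ± 0.692 and 10.4 ± 1.05 CPM per kb on GSF, where their libraries overlapped, and at 11.6 ± 1.09 and 9.004 ± 0.17 CPM per kb on HF, where TpnC47D was higher in each library.

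Set side by side, the 4 tested flight muscle genes had a median log2 fold change of -0.099 with 3 below 0, and the 7 genes of other muscles had a median of -0.020 with 4 below 0. Of the flight muscle genes 1 was called lower and of those of other muscles 0 were called in either direction, against 5.14% of all tested genes. The difference of the medians was -0.079, and it depended on the choices made: -0.177 with the length trend removed, -0.056 with Act88F, TpnC4 and fln alone as the flight muscle class, -0.046 with TpnC41C in that class, and between -0.184 and -0.047 with 1 library left out. By library, the median difference from the HF mean was -0.186, -0.110 and -0.437 on GSF and -0.126, 0.071 and 0.036 on HF for the flight muscle genes, and 0.107, 0.051 and -0.051 on GSF and 0.012, -0.022 and 0.026 on HF for those of other muscles. The diets overlapped for both classes. The most negative value of the flight muscle class, in GSF library 3, is that of the library with the lowest Act88F. The 19 members shared by flight and other muscles had a median of -0.037 and 0 calls.

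The shared genes of the thick filament hardly differed. Mhc had 962, 1085 and 1131 CPM in GSF libraries and 998, 1094 and 1224 CPM in HF libraries, a log2 fold change of -0.06 (standard error 0.10, FDR = 0.832). Mlc1 and Mlc2 differed by -0.00 and -0.06 on the log2 scale (standard errors 0.063 and 0.086), Prm, the paramyosin gene of the filament core, by -0.08 (standard error 0.087) and Mf, the myofilin gene, by -0.06 (standard error 0.075). All 7 thick filament genes had a fold change below 0, with a median of -0.061, where 6383 of all 13373 tested genes lay below 0. Only fln was past the threshold. With 1 library left out in turn, Mhc, Mlc1, Mlc2, Prm and Mf each had values on both sides of 0.

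In the thin filament, 7 of 14 members were above and 7 below 0, with a median of 0.009. The 5 members whose GSF libraries all lay above the HF libraries were all of the thin filament (wupA, Tm1, TpnC41C, TpnC73F and tmod). In 2 other thin filament genes, Tm2 and TpnC47D, all GSF libraries lay below the HF libraries. Of the 14 thin filament members, 0 were called in either direction. Over the 30 members, libraries of the diets did not overlap in 5 with GSF higher and 4 with GSF lower, where 12.3% and 12.9% of all tested genes behaved so. tmod, which encodes tropomodulin, the cap of the slow-growing thin filament end, had 117, 134 and 127 CPM in GSF libraries and 108, 113 and 111 CPM in HF libraries. Its log2 fold change was 0.19 (standard error 0.071, FDR = 0.203), and 0.07 with the length trend removed. The troponin I gene wupA had 242, 249 and 244 CPM in GSF libraries and 234, 239 and 222 CPM in HF libraries (log2 fold change 0.08, standard error 0.064, FDR = 0.572). The tropomyosin gene Tm1, which also makes non-muscle forms, had 345, 343 and 331 CPM in GSF libraries and 328, 329 and 298 CPM in HF libraries (log2 fold change 0.09, standard error 0.069, FDR = 0.537). The muscle tropomyosin gene Tm2 lay lower, with 205, 198 and 200 CPM in GSF libraries and 211, 214 and 205 CPM in HF libraries (log2 fold change -0.07, standard error 0.061, FDR = 0.66). For up, the log2 fold change was -0.04 (standard error 0.065).

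Among the genes grouped as Z-disc, M-line, elastic and anchoring, the clearest difference was in Mlp60A (FBgn0259209, chromosome 2R, 24074602 to 24078223). This gene encodes a muscle LIM protein. It had 81.1, 79.1 and 77.4 CPM in GSF libraries, against 95.2, 93.4 and 89.1 CPM in HF libraries. The groups did not overlap, and libraries of the same number differed by -0.23, -0.24 and -0.20 on the log2 scale. The fitted log2 fold change was -0.22 (standard error 0.061), or -14.4%, with FDR = 0.0828, which missed the threshold, and FDR was 0.0298 with the block, which passed. The related gene Mlp84B had 156, 176 and 174 CPM in GSF libraries and 168, 196 and 193 CPM in HF libraries, with a log2 fold change of -0.14 (standard error 0.086, FDR = 0.466). With the block, 0 members were called higher and 3 lower (fln, TpnC47D and Mlp60A), where 6.80% and 6.52% of all tested genes were.

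The Z-disc and M-line genes Actn, Zasp52, Zasp66 and Unc-89 stayed close to 0. Actn, the alpha-actinin gene, differed by 0.01 (standard error 0.075), Zasp52 by -0.00 (standard error 0.064), Zasp66 by -0.02 (standard error 0.069) and Unc-89, the obscurin gene of the M-line, by -0.01 (standard error 0.095) on the log2 scale. Actn shares exon with 3 neighbouring genes, of which east covers 15.7% of its exon length on the other strand. Over all members, 9 shared exon sequence with at least 1 other gene.

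Members span a wide range of length. Of the 31, 17 had under 3 kb of exon, 8 between 3 and 10 kb, and 6 had 10 kb or more: Msp300 with 69810 bp, sls with 58996 bp, Strn-Mlck with 32768 bp, bt with 28019 bp, Unc-89 with 13261 bp and Zasp52 with 10916 bp. The longest annotated coding sequence of sls, the titin-related gene that also makes kettin, holds 18468 codons, and those of Mlc1 and TpnC4 hold 155 and 153. None of the 6 giant genes was called. Msp300, a nesprin gene that holds nuclei and organelles in place, had 682, 828 and 805 CPM in GSF libraries and 774, 783 and 847 CPM in HF libraries, a log2 fold change of -0.05 (standard error 0.091). sls had 650, 733 and 768 CPM in GSF libraries and 693, 788 and 743 CPM in HF libraries, a log2 fold change of -0.05 (standard error 0.088). bt, which encodes projectin, a titin-like protein, had 405, 478 and 479 CPM in GSF libraries and 382, 440 and 475 CPM in HF libraries, a log2 fold change of 0.07 (standard error 0.105). In each of these genes the diets overlapped.

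The 6 giant members had a median log2 fold change of -0.030, with 1 above and 5 below 0. Among the 262 other tested genes with 10 kb or more of exon the median was 0.105 and 227 lay above 0 (86.6%), with 2.67% called higher and 0 lower. The 17 short members had a median of -0.037, with 5 above and 12 below 0, and the 9810 other short genes a median of -0.017, with 45.4% above 0. Across all genes, therefore, long genes were higher on GSF relative to short genes, and the giant members lay below the median of other genes of their length class. The classes are not matched in length: the giant members had a median of 30.4 kb and the others 12.4 kb. Of the 6 other tested genes with 25 kb or more, 3 were above and 3 below 0 with a median of 0.084, and of the 4 members of that length 1 was above and 3 below 0 with a median of -0.051. This difference was not tested.

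**Figure D4:**
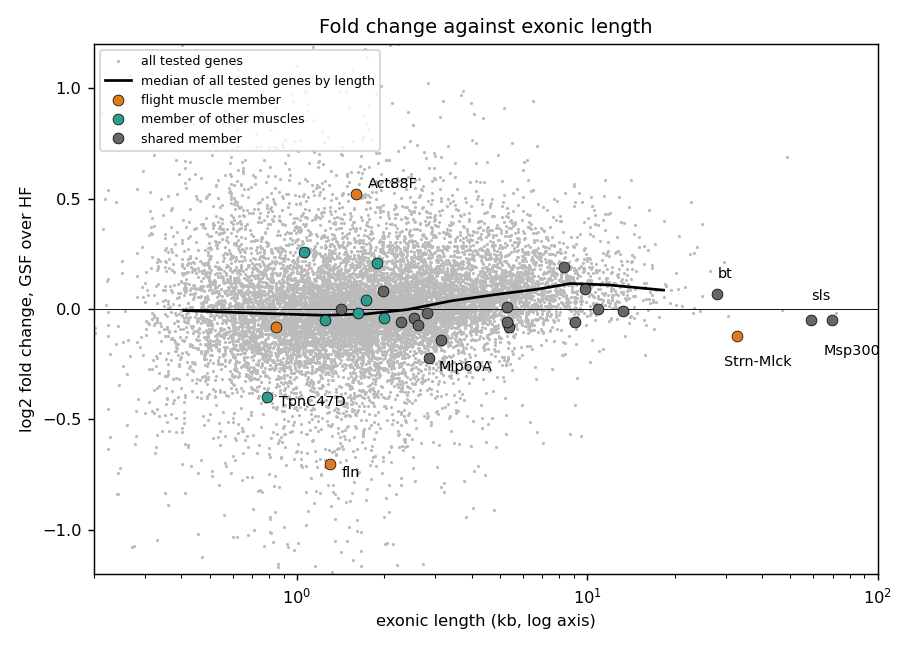
Log2 fold change, GSF over HF (y axis, cropped to the range around the members), against exonic length on a log axis, for all tested genes (grey), their median by length (black line) and the sarcomere genes (coloured by muscle class). The line lies near 0 for short genes and above 0 for genes of several kb, while the giant sarcomere genes lie close to or below 0.

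By library, the median difference of the giant members from their HF mean was -0.164, 0.051 and 0.017 in GSF libraries 1, 2 and 3, and -0.081, 0.010 and 0.067 in HF libraries 1, 2 and 3. For the other genes of this length it was -0.027, 0.195 and 0.153 in GSF libraries and -0.052, 0.028 and 0.035 in HF libraries. Both sets were lowest in replicate 1 of each diet, and in all 3 GSF libraries the giant members lay below the other giant genes. The short members lay between -0.060 and -0.010 in GSF libraries and between -0.016 and 0.033 in HF libraries. The giant minus short difference of the members' medians was 0.008. When a smooth trend on exonic length was removed from each library, the median of the giant members was -0.143, that of the short members -0.025 and that of all tested genes -0.012. In that fit 3 members were called lower (fln with FDR = 0.0213, TpnC47D with 0.0444 and Mlp60A with 0.0446), where 3.52% of all tested genes were. With the replicate block in that fit, the giant gene Strn-Mlck was called lower as well, at -0.24 on the log2 scale (FDR = 0.0418, and 0.0912 without the block). More genes were called lower with the block there, 910 of all 13277 tested genes. Whether the length trend comes from the libraries or from the flies was not tested.

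**Figure D5:**
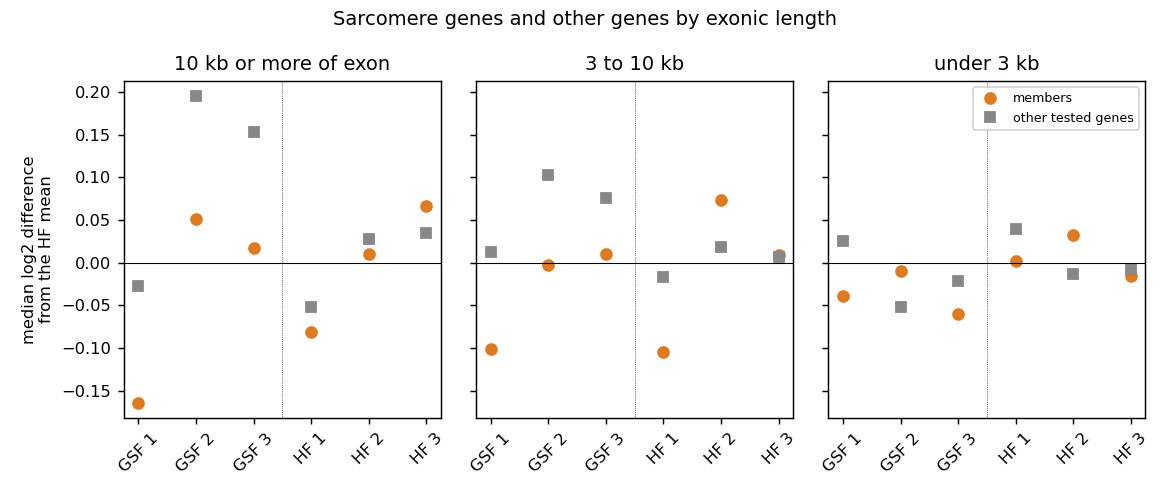
Median log2 difference from the HF mean in each library (y axis) for sarcomere genes (circles) and other tested genes (squares) with 10 kb or more, 3 to 10 kb and under 3 kb of exon, GSF libraries left of HF libraries. In GSF libraries 2 and 3 the other giant genes lie at 0.195 and 0.153, above the giant sarcomere genes at 0.051 and 0.017.

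Replicates agreed closely for most members. The median coefficient of variation of the 30 tested members was 6.16% on GSF and 5.59% on HF, against 7.45% and 8.47% for all tested genes.

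Further muscle genes outside the sarcomere list, for transcription factors, calcium stores, assembly and attachment, were read from a list of 25, of which 23 were matched and tested. Of these, 18 were above and 5 below 0, their log2 fold changes had a median of 0.086, and 0 were called in either direction. Over all genes, 6990 of 13373 tested genes lay above 0. By exonic length these were 45.4% of genes under 3 kb, 70.3% of those with 3 to 10 kb and 85.1% of those with 10 kb or more. The list was not matched to other genes in length, and its split was not tested. The muscle transcription factor genes Mef2 and salm differed by 0.16 and 0.05 on the log2 scale (standard errors 0.069 and 0.094), the sarcoplasmic calcium pump gene SERCA by -0.15 (standard error 0.084) and the arginine kinase gene Argk1 by -0.17 (standard error 0.062), with FDR of 0.254, 0.86, 0.394 and 0.189. With the replicate block, 3 of the 23 were called higher and 0 lower, where 6.80% and 6.52% of all tested genes were: the dystroglycan gene Dg at 0.26 (FDR = 0.0289), the integrin beta gene mys at 0.33 (FDR = 0.0193) and the integrin-linked kinase gene Ilk at 0.19 (FDR = 0.0439). Other genes of the list for attachment did not pass with the block, among them the integrin alpha gene if at -0.10, rhea at 0.09, Vinc and parvin at 0.10, stck at 0.09 and Dys at 0.01. Integrins and dystroglycan are used by many tissues. Of the cytoplasmic counterparts of the sarcomere proteins, Act5C, Act42A, sqh and Mlc-c, all 4 were above 0 with a median of 0.166 and 0 were called. The non-muscle myosin light chain gene Mlc-c passed with the block, at 0.28 on the log2 scale (FDR = 0.0237).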

How the data were processed

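Whole-fly RNA of 3 GSF and 3 HF libraries was analysed. The authors trimmed reads with Trimmomatic, aligned them with HISAT2 2.1.0 to bdgp6, converted files with SAMtools 1.8 and counted genes with Rsubread; the deposited values are raw read counts per gene. The authors also deposited an edgeR table with log2 fold changes, mean levels and p-values of GSF against HF, of which only the gene symbols were used. Members and lists were chosen with earlier results of these data known, and muscle classes come from general knowledge. All members are named, and of the other lists the genes past a threshold, a few chosen after their values were seen.

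Genes reaching 1 CPM in 3 or more libraries were fitted in R 4.3.3 with edgeR 4.0.16 (TMM, quasi-likelihood test, two-sided, Benjamini-Hochberg over all 13373 tested genes). The standard error was taken as the size of the log2 fold change divided by the root of F, and 95% intervals use the t distribution of the fit. DESeq2 1.42.0 was an alternative. Scripts were tested on simulated counts. Exonic lengths and coordinates are from Ensembl BDGP6.54; Unc-89 is named Obsc there. In the lists of other muscle genes and counterparts, 27 of 30 symbols matched. Permuting 3 against 3 libraries exactly for 1 gene cannot give p below 0.1.

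Libraries of the same number deviated together from their diet's mean across genes (r = 0.188, 0.247 and 0.476). For the other 6 pairs r lay between -0.309 and 0.115. Deviations within a diet cancel out for each gene, so these r values are not independent of each other. The numbers were treated as pairs, which rests on the counts and not on a label. The fit with the replicate block is printed beside results of members, other muscle genes and counterparts whose call it changed. With the block, the markers nSyb, Syt1, para and mex1 were called higher. Called lower with it were Jon65Aiv, Jon99Ciii, Mal-A1, LManII, Lsp2, FASN1, Lsd-1 and Yp3. Genes are not independent replicates. Alternatives were other scalings, tests, filters, classes and a length correction.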

Additional observations from a re-analysis of the deposited data

How the results depend on the processing

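The members' call depended on the test more than on the scaling. The count of members called lower (1, fln) was 2 with edgeR's likelihood ratio test and 2 with its exact test (both added TpnC47D), 3 with the replicate block, 3 with DESeq2, 3 with the length trend removed and 3 at an unadjusted p under 0.05 (each added TpnC47D and Mlp60A), and 4 with the length trend removed and the block together, where Strn-Mlck was the fourth. At an unadjusted p under 0.05, 2 members were higher. Scalings, filters and removal of the 50 highest genes kept the count at 1. Over all tested genes, 267 were called higher and 420 lower, against 910 and 872 with the replicate block, 604 and 824 with DESeq2, 470 and 578 with the likelihood ratio test, 468 and 575 with the exact test, and 719 and 910 with the length trend removed and the block. The block changed no other call of a member, and the median of all genes lay between -0.012 and 0.023 under every setting run. Why the calls differ between these tests was not tested.

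Removing the length trend shifted the length classes by construction. The median of the giant members was then -0.143, and -0.144 with the replicate block, and the giant minus short difference was -0.118, and -0.113 with the block. Members close to 0 changed sign. With the length trend removed, both without and with the block, the log2 fold change was 0.03 and 0.03 for Mlc1, 0.01 and 0.01 for Act79B, -0.02 and -0.02 for Tm1, -0.05 and -0.05 for bt, and -0.07 and -0.07 for Actn. With library size alone, Mlc1 and Zasp52 were both at 0.01. Without the 50 highest genes, Mlc1 was at 0.00 and Zasp52 at 0.01, and with 1 CPM required in all libraries Zasp52 was at 0.00. None of these values was past the threshold. The flight minus other muscle difference was -0.177, and -0.179 with the block, when the length trend was removed, and Act88F was at 0.29 with the block alone.

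With each library left out in turn, the count of members called lower was between 0 and 1, and 0 without any 1 of the GSF libraries. The fewest calls over all genes were 51 higher and 65 lower without GSF replicate 1 and 48 higher and 121 lower without HF replicate 1. The median log2 fold change was between -0.064 and 0.010 for the members, between -0.144 and -0.062 for those of flight muscle, between -0.039 and 0.047 for those of other muscles, between -0.078 and 0.025 for the giant members and between -0.046 and 0.005 for the short members. The flight minus other muscle difference lay between -0.184 and -0.047, and the giant minus short difference between -0.051 and 0.053. By gene, the range of the log2 fold change crossed or met 0 for Mhc (-0.13 to 0.02), Mlc1 (-0.03 to 0.03), Mlc2 (-0.12 to 0.04), Prm (-0.14 to 0.01), Mf (-0.11 to 0.01), Act88F (-0.22 to 0.96), Act79B (-0.09 to 0.05), Act57B (-0.00 to 0.13), up (-0.07 to 0.00), TpnC25D (-0.14 to 0.05), bt (-0.01 to 0.14), sls (-0.09 to 0.02), Msp300 (-0.11 to 0.03), Unc-89 (-0.08 to 0.06), Actn (-0.03 to 0.07), Zasp52 (-0.03 to 0.02) and Zasp66 (-0.06 to 0.01). Without crossing 0, TpnC73F was at 0.13 without HF replicate 3, and Mlp84B was at -0.08 without GSF replicate 1 or HF replicate 2.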

Other observations

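The level of the essential light chain gene Mlc1 over that of the regulatory light chain gene Mlc2, per kb of exon, was 0.698, 0.698 and 0.697 in GSF libraries and 0.739, 0.615 and 0.677 in HF libraries. This pair was chosen after its values were seen, and the ratio was not tested.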
